A study of Homo sapiens with 8 samples.

Results

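The genes described here make cholesterol and fatty acids or control that synthesis. They were chosen by name, as 32 sterol and fatty acid genes and their regulators, and each was found by its Ensembl identifier among the 63140 genes of the count table. All 32 had counts and all 32 passed the filter on low counts. They fell into 7 genes of the entry and mevalonate steps, 11 of the squalene and sterol steps, 5 regulators and sterol carriers, 7 genes of fatty acid synthesis and desaturation, and 2 sterol efflux transporters.

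The method was ChIRP (chromatin isolation by RNA purification): biotinylated probes pull RNA out of cross-linked, sonicated lysate, and each value is an amount of RNA that came down, not a level in whole cells. The cells were labelled MOLM13 and OCI-AML4, established human acute myeloid leukaemia lines, nucleofected with guide RNAs and taken on day 3 after editing. One pair of groups received Cas9 ribonucleoprotein, which cuts DNA: AAVS1 KO, labelled wild type for HOTSCRAMBL, and HOTSCRAMBL KO, in which the long non-coding RNA HOTSCRAMBL was the target. The other pair received a cytosine base editor, which turns C into T and makes no double-strand break: AAVS1 CBE, again labelled wild type, and HOTSCRAMBL CBE. AAVS1 served as the editing control in each pair, so controls and targeted cells alike had been nucleofected and edited. Each group held 2 libraries, with replicate 1 labelled MOLM13 and replicate 2 labelled OCI-AML4. By these labels alone the replicates are different lines and not repeat cultures of 1 line. Between the line labels 119 of the 24057 tested genes were called (0.495%), and same-label libraries deviated together with r of only 0.0154 to 0.0411. The labels were not checked in another way, so agreement between the replicates cannot be taken as recurrence in 2 lines. The labels name no clone, give no editing rate and do not name the RNA that the probes target. No library is labelled as an input sample. No gene of the table carries the name HOTSCRAMBL, and its level was not analysed here, so the labels of the targeted groups were not checked against it.

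Cholesterol is built from acetyl-CoA through mevalonate, the isoprenoid units made by IDI1 and FDPS, squalene, and a series of sterol intermediates. Fatty acids are built from the same acetyl-CoA by ACLY, ACACA and FASN and are then elongated and desaturated. Transcription of both sets is driven by the SREBP factors, encoded by SREBF1 and SREBF2, which SCAP carries out of the endoplasmic reticulum when sterols are low and which INSIG1 holds back when sterols are high. Leukaemia cells, like other dividing cells, use both routes to make membrane, and ABCA1 and ABCG1, targets of the liver X receptors, export sterol.

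The promoters of 3 called members are printed here, as examples of the sequence before members that the results turn on; they do not stand for all called members, whose motif counts follow. Each is the 250 bases before a start site from RefSeq's GRCh38.p14 tables, read 5′ to 3′ along the gene. Capitals mark the 3 motifs searched on both strands: the sterol element TCACNCCA, the E-box palindrome TCACGTGA and the CCAAT box CCAAT, which do not share letters with each other in these windows. MSMO1 was called higher in HOTSCRAMBL KO, SCD was called higher in HOTSCRAMBL CBE, and SREBF1 was called lower in HOTSCRAMBL KO.
MSMO1, chr4:165327419-165327668, plus strand: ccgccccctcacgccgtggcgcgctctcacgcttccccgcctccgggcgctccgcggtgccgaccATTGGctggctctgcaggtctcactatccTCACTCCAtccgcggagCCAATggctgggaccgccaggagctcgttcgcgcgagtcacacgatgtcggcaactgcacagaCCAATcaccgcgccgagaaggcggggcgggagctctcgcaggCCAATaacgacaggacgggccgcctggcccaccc
SCD, chr10:100346983-100347232, plus strand: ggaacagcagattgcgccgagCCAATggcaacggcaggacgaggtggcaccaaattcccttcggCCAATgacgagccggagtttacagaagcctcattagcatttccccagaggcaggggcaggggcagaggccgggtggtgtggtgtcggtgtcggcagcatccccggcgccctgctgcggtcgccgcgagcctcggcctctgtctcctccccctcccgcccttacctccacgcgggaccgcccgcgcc
SREBF1, chr17:17836987-17837236, minus strand: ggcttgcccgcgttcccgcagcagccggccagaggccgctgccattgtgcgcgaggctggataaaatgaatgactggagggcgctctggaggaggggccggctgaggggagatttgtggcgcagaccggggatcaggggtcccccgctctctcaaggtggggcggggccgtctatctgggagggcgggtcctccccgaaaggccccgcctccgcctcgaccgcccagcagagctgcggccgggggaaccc

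MSMO1 held the sterol element, which 3.20% of the 35116 windows of that length held, and 4 CCAAT boxes. SCD held 2 CCAAT boxes, and SREBF1 held none of the 3 motifs in this window. Across the 27 members with a window, 3 held the sterol element (MSMO1, MVK and SREBF2) and 1 the palindrome (INSIG1, against 0.854% of all windows). Of the 27, 19 held a CCAAT box, which 32% of all windows held. A member counted if any of its windows held the motif (36 windows for the 27), whereas the shares of all windows are per window. The member counts and those shares are thus in unlike units. A CCAAT box stood in a window of all 5 members called higher with either editor that had one and in 4 of 5 called lower (ACACA, FDPS, LSS and MVD, the exception being SREBF1), so the box did not separate the directions. A match describes letters only, and its absence says only that these letters are not in this window. The read counts are per gene and pool all its transcripts and starts.

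Total counts ran from 20548300 to 37970163 per library, and the members together took 0.228% to 0.3005% of them. Their share was 0.228% and 0.2312% in HOTSCRAMBL KO against 0.276% and 0.3005% in AAVS1 KO, and 0.2529% and 0.282% in HOTSCRAMBL CBE against 0.2801% and 0.2865% in AAVS1 CBE. Their 95% Wilson intervals, which cover counting error only, were narrow, from 0.226% to 0.2301% in HOTSCRAMBL KO replicate 1 and from 0.2739% to 0.2781% in AAVS1 KO replicate 1. Other RNA moved with the groups: ribosomal protein genes took 1.32% to 1.60% of the counts in AAVS1 libraries, 3.98% and 4.46% in HOTSCRAMBL KO and 3.20% and 3.38% in HOTSCRAMBL CBE, and mitochondrially encoded genes 6.77% to 7.23% against 10.2% to 11.85%. Of 10 myeloid leukaemia markers, 9 stood above 10 CPM (counts scaled to library size) in every library and KIT was not tested. Their summed level ran from 1171 to 1259 CPM in AAVS1 libraries, from 1626 to 1818 CPM in HOTSCRAMBL KO and from 1227 to 1290 CPM in HOTSCRAMBL CBE. LYZ, the lysozyme gene, carried the higher KO sum, at 120 and 141 CPM in AAVS1 KO against 506 and 702 in HOTSCRAMBL KO. Without LYZ, a choice made after its values were seen, the sums were 1037 to 1139 CPM in AAVS1 KO and 1116 to 1120 in HOTSCRAMBL KO. Of the 9 markers tested, LYZ, CEBPA and CSF1R were called higher with Cas9, at log2 fold changes of 2.20, 1.00 and 0.69. That is 33.3%, where 8.76% of all tested genes and 16.3% of those with a mean above 5 CPM were called in either direction. CD33, FLT3, MPO, ITGAM, SPI1 and PTPRC lay between −0.84 and −0.02 without a call. With the base editor CEBPA and PTPRC were called higher, at 0.61 and 0.67 (22.2%, against 8.83% and 17.0%). The other 7 were not called. Of these, ITGAM, MPO, CSF1R and CD33 had −0.91, −0.71, −0.53 and −0.33. LYZ, FLT3 and SPI1 had 0.23, 0.17 and 0.036. The 11 markers of T cells, B cells, epithelium, fibroblasts and erythroid cells summed to at most 2.81 CPM in any library, and 0 of them were present in every library. The part of these shares in the results below was not tested. In such bulk pull-down samples, fewer cells of a type, less RNA per cell and less RNA brought down by probes cannot be told apart.

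Levels were compared between genes as CPM per kb of exon in the 4 AAVS1 libraries. FASN, the multi-enzyme fatty acid synthase, stood highest at 77.96 ± 2.48 CPM per kb (SD, n = 4). FDFT1, the squalene synthase, followed at 45.0 ± 6.27, SREBF1 at 31.6 ± 2.75 and FDPS, the farnesyl diphosphate synthase, at 31.4 ± 3.34, and the last 2 did not differ beyond their spread. ACLY, which makes cytosolic acetyl-CoA from citrate, SREBF2, the stearoyl-CoA desaturase SCD, SCAP, INSIG1 and the acetyl-CoA carboxylase ACACA formed the next step, from 26.1 down to 18.8 CPM per kb. The late sterol enzymes stood lower, with SC5D, a sterol desaturase, at 0.686 ± 0.27 CPM per kb, and ABCG1 was lowest at 0.177 ± 0.117. By exon length, abundant members thus included enzymes of each route and 4 of the 5 regulators, and the lowest were a sterol desaturase and a transporter. Exon length pools the exons of all transcripts of a gene. It was 10054 bases for SC5D, whose longest GENCODE v29 coding transcript has 2456, so low ranks depend on the length used. Ranks by transcript length were not computed.

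**Figure D1:**
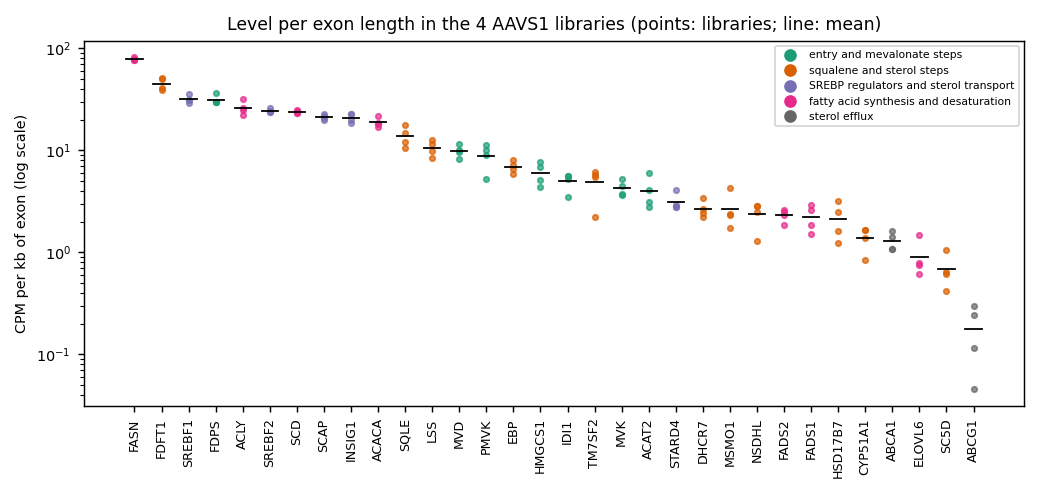
Level of the 32 members in the 4 AAVS1 libraries, in CPM per kb of exon on a log axis, ordered by mean. Points are libraries, black lines are means and colours are roles. FASN stands above every other member at 77.96 CPM per kb and ABCG1 lowest at 0.177.

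With Cas9, 10 of the 32 members passed the test against AAVS1 KO, 5 higher and 5 lower, and 22 did not pass (edgeR quasi-likelihood F-test, Benjamini-Hochberg adjusted p under 0.05 over 24057 genes). Higher were the isomerase IDI1, the sterol desaturase SC5D, the methylsterol oxidase MSMO1, the squalene epoxidase SQLE and INSIG1. Lower were the lanosterol synthase LSS, SREBF1, FDPS, ACACA and FASN. Among all tested genes 8.76% passed, 4.51% higher and 4.25% lower, and among genes with a mean above 5 CPM, where 31 of the members lie, 16.3% passed. The members' median log2 fold change was −0.05, against −0.01 for all genes. Of the 5 higher members 4 are enzymes of the sterol route (IDI1, SC5D, MSMO1 and SQLE). The 5 lower ones held 2 enzymes of the sterol route (LSS and FDPS), 2 of fatty acid synthesis (ACACA and FASN) and SREBF1, so called sterol enzymes lay in both directions.

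With the base editor, 4 members passed against AAVS1 CBE and 28 did not. SCD and INSIG1 were higher, and the decarboxylase MVD and FASN were lower. The background was 8.83% of all tested genes, 4.56% higher and 4.27% lower, and 17.0% of genes above 5 CPM. The median log2 fold change was 0.19 for the members and −0.02 for all genes. With library size alone in place of TMM scaling, the median of all genes lay at −0.17 for KO and −0.15 for CBE, and the KO split of the members became 3 higher and 6 lower, beside 839 higher and 1695 lower among all genes in that setting. The comparisons of the editors share no library. They came from 1 fit of all 8 libraries, with a shared estimate of spread, so they are not independent tests. A fit of only the 4 libraries of a contrast kept the KO calls of IDI1, SREBF1 and FASN. It also kept the CBE calls of SCD and INSIG1. The KO calls of SC5D, MSMO1, SQLE, LSS, INSIG1, ACACA and FDPS and the CBE calls of MVD and FASN were lost in it. Those losses add to the ones given below by gene.

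**Figure D2:**
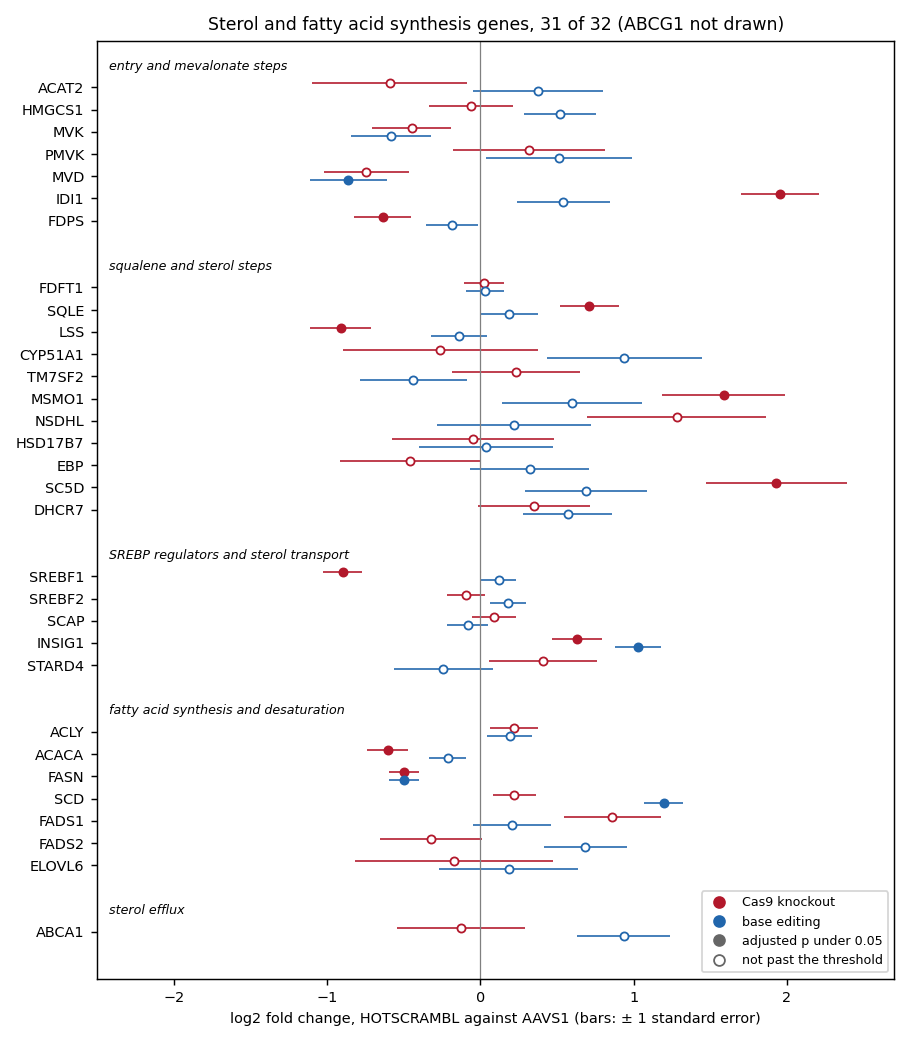
Log2 fold change of HOTSCRAMBL against AAVS1 for 31 members by role, for Cas9 knockout (red) and base editing (blue), with bars of 1 standard error either side. Filled points passed an adjusted p of 0.05: IDI1, SC5D, MSMO1, SQLE and INSIG1 lie right of 0 and LSS, SREBF1, FDPS, ACACA and FASN left of it with KO, and SCD, INSIG1, MVD and FASN were called with CBE. ABCG1 is left out because its counts were low, at 0 and 2 in HOTSCRAMBL KO.

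In the sentences that follow, values are CPM after TMM scaling, with the MOLM13 library first and the OCI-AML4 library second, and AAVS1 stands before HOTSCRAMBL wherever values are set against each other. Among the entry and mevalonate steps, IDI1 (ENSG00000067064, GRCh38 chromosome 10, 1039152 to 1049119), which interconverts the isoprenoid units, read 24.3 and 24.0 in AAVS1 KO against 73.25 and 114.2 in HOTSCRAMBL KO. Both targeted libraries stood above both controls. The rise was 3.87-fold (log2 fold change 1.95 ± 0.256 SE, adjusted p 4.66e-06 in edgeR), and the call was kept under each of the 17 alternatives run. Under base editing IDI1 read 15.12 and 22.68 in AAVS1 CBE against 30.6 and 21.77 in HOTSCRAMBL CBE. These groups overlapped, the log2 fold change was 0.54 (SE 0.303, edgeR adjusted p 0.337), and it was −0.0058 without HOTSCRAMBL CBE replicate 1. IDI1 shares 14.97% of its exon bases with the antisense gene IDI2-AS1, whose reads cannot be told apart from its own on those bases because strand was not used.

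FDPS (ENSG00000160752, chromosome 1, 155308748 to 155320666), which makes farnesyl diphosphate, read 109.6 and 135.2 in AAVS1 KO against 55.09 and 101.8 in HOTSCRAMBL KO. The groups did not overlap, and the MOLM13 library was the lower of the targeted pair. Its log2 fold change was −0.64 (SE 0.187, edgeR adjusted p 0.0307). The call was lost without the line term (−0.63, edgeR adjusted p 0.067) and in 7 of the 8 fits with 1 library left out, down to −0.31 without HOTSCRAMBL KO replicate 1. Base editing gave FDPS values of 110.7 and 110.8 against 97.55 and 96.42, a log2 fold change of −0.18 that did not pass. FDPS has processed pseudogenes, and reads that fit several positions were not counted.

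MVD (ENSG00000167508, chromosome 16, 88651935 to 88663161), which makes isopentenyl diphosphate, read 54.07 and 38.93 in AAVS1 CBE against 23.64 and 28.66 in HOTSCRAMBL CBE, with no overlap. It fell 1.82-fold (log2 fold change −0.86 ± 0.25 SE, adjusted p 0.0278 in edgeR). The call was lost in 5 of the 8 fits with 1 library left out, and the value was −0.45 without AAVS1 CBE replicate 1. With Cas9 it read 45.43 and 47.04 against 22.09 and 32.58, again without overlap, but the log2 fold change of −0.74 did not pass (edgeR adjusted p 0.105). That value passed with DESeq2 (adjusted p 0.0238), with library size alone and with edgeR's earlier estimate of dispersion.

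The other 4 members of these steps passed with neither editor. MVK, the mevalonate kinase, was lower in both targeted libraries of each editor, with log2 fold changes of −0.45 and −0.58 for KO and CBE. HMGCS1, which makes HMG-CoA, had −0.06 and 0.52, PMVK, the phosphomevalonate kinase, 0.31 and 0.51, and ACAT2, the thiolase that joins acetyl-CoA units, −0.59 and 0.38. ACAT2 read 15.68 and 8.20 CPM in AAVS1 KO, and its groups overlapped with Cas9.

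**Figure D3:**
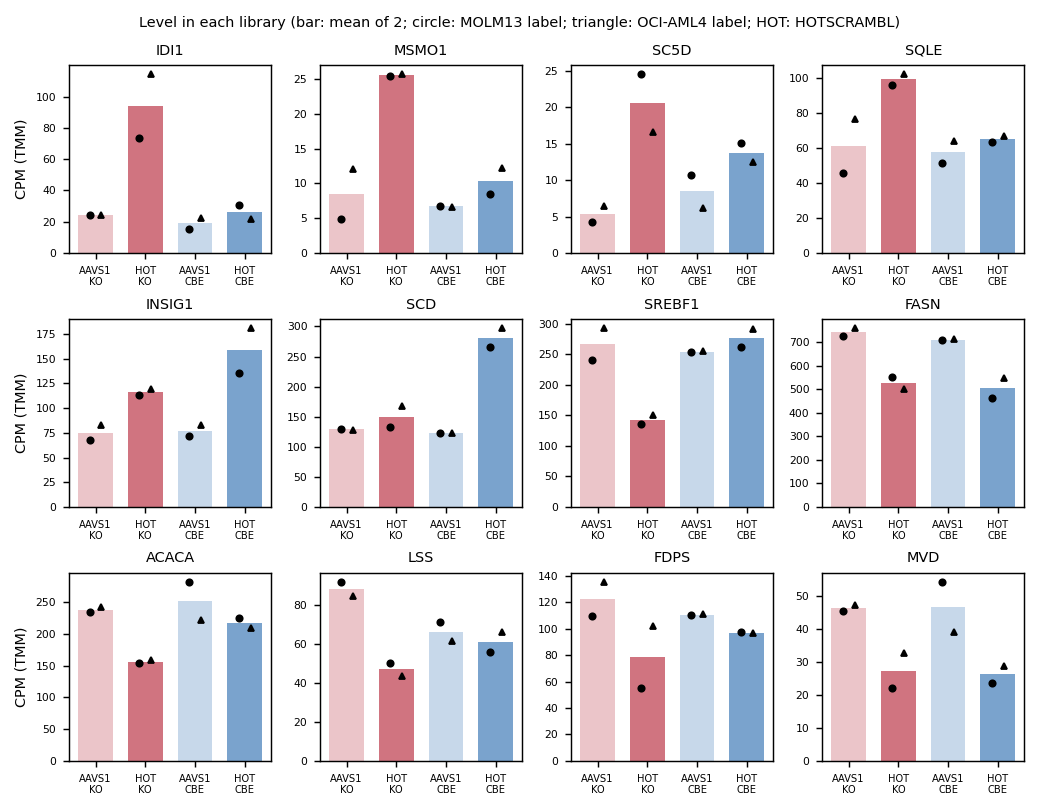
Level in CPM after TMM scaling of the 12 members called in a comparison of either editor, in each of the 8 libraries. Bars are means of 2 libraries, circles the MOLM13 and triangles the OCI-AML4 library, and each panel has its own axis from 0. IDI1, MSMO1 and SC5D stand highest in HOTSCRAMBL KO, SCD and INSIG1 in HOTSCRAMBL CBE, and FASN is lower in all 4 HOTSCRAMBL libraries.

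Among the 11 squalene and sterol steps, 4 passed with Cas9 (36.4%, against 8.76% of all genes and 16.3% of those above 5 CPM). Under base editing 0 passed in edgeR, 0 in DESeq2 and 0 at an unadjusted p under 0.05. Of all tested genes, 8.83% passed there in edgeR and 20.13% had an unadjusted p under 0.05. SC5D (ENSG00000109929, chromosome 11, 121292681 to 121313410), which sets a double bond in the sterol ring, read 4.23 and 6.48 in AAVS1 KO against 24.48 and 16.54 in HOTSCRAMBL KO. It rose 3.81-fold (log2 fold change 1.93 ± 0.46 SE, adjusted p 0.00637 in edgeR). The call was lost without AAVS1 KO replicate 1 (1.38) and without HOTSCRAMBL KO replicate 1 (1.77). In the base-edited pair SC5D read 10.68 and 6.18 against 15.08 and 12.44, which did not overlap, and its log2 fold change of 0.69 did not pass (edgeR adjusted p 0.354).

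MSMO1 (ENSG00000052802, chromosome 4, 165327667 to 165343164), the oxidase that removes methyl groups from sterol precursors, read 4.94 and 12.12 in AAVS1 KO against 25.45 and 25.7 in HOTSCRAMBL KO. The targeted libraries were nearly equal and the controls were spread. The rise was 3.00-fold (log2 fold change 1.59 ± 0.399 SE, adjusted p 0.0101 in edgeR), and the call was lost without AAVS1 KO replicate 1 (1.15) and without either targeted library (1.34 without replicate 1 and 1.90 without replicate 2). For base editing, MSMO1 read 6.75 and 6.68 against 8.54 and 12.2, with a log2 fold change of 0.60 that did not pass.

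SQLE (ENSG00000104549), the squalene epoxidase, an early oxygen-using step, read 45.43 and 76.55 in AAVS1 KO against 96.2 and 102.0 in HOTSCRAMBL KO. Its log2 fold change was 0.71 (SE 0.193, edgeR adjusted p 0.0185). Leaving out AAVS1 KO replicate 1 brought it to 0.45, and the call was also lost without either targeted library and with library size alone. Base-edited libraries gave SQLE values of 51.37 and 64.12 against 63.27 and 66.61, and these groups overlapped.

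LSS (ENSG00000160285, chromosome 21, 46188141 to 46228824), which closes squalene epoxide into lanosterol directly after SQLE, moved the other way. It read 91.45 and 84.31 in AAVS1 KO against 50.14 and 43.49 in HOTSCRAMBL KO, and fell 1.88-fold (log2 fold change −0.91 ± 0.2 SE, adjusted p 0.00317 in edgeR). The call was lost without either AAVS1 KO library and without HOTSCRAMBL KO replicate 2, at values from −0.93 to −0.83. Under base editing it read 70.84 and 61.22 against 55.79 and 65.75, with overlap. The AAVS1 KO libraries stood above the AAVS1 CBE libraries for LSS (log2 fold change 0.41, unadjusted p 0.0293), and that difference did not pass after adjustment (edgeR adjusted p 0.991).

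The other 7 genes of these steps passed with neither editor. FDFT1, the second most abundant member per length, had log2 fold changes of 0.02 (95% interval −0.25 to 0.29) with KO and 0.03 (−0.23 to 0.28) with CBE, and both values turn below 0 with library size alone. NSDHL, a sterol dehydrogenase, read 2.59 and 5.00 in AAVS1 KO against 8.11 and 10.19 in HOTSCRAMBL KO, with a log2 fold change of 1.28 that passed, of the alternatives run, only with DESeq2 (adjusted p 0.0377). DHCR7, which makes cholesterol from its last precursor on one branch, had 0.35 and 0.57. CYP51A1, the lanosterol demethylase, had −0.26 and 0.94, with standard errors of 0.635 and 0.505, and shares 74.08% of its exon bases with other genes. TM7SF2, HSD17B7 and EBP, a reductase, a ketoreductase and an isomerase of the sterol ring, lay between −0.46 and 0.32.

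Of the 5 regulators and carriers, SREBF1 (ENSG00000072310, chromosome 17, 17810399 to 17837002), the SREBP gene tied most to fatty acid synthesis, read 240.0 and 292.7 in AAVS1 KO against 135.3 and 150.0 in HOTSCRAMBL KO. It fell 1.86-fold (log2 fold change −0.90 ± 0.126 SE, adjusted p 1.19e-05 in edgeR), and the call was kept under each of 17 alternatives. In the base-edited pair it read 253.4 and 255.2 against 262.7 and 291.5. The HOTSCRAMBL CBE libraries were the higher ones there, and the log2 fold change of 0.12 (95% interval −0.11 to 0.35) did not pass, and it was −0.019 with library size alone. RAI1, an antisense neighbour over 6.75% of the exon bases of SREBF1, also fell with Cas9, with a log2 fold change of −0.65 (edgeR adjusted p 0.00321).

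INSIG1 (ENSG00000186480, chromosome 7, 155297776 to 155310235), the sterol-dependent anchor of SCAP, was called higher with each editor. It read 67.34 and 83.07 in AAVS1 KO against 113.1 and 119.6 in HOTSCRAMBL KO (log2 fold change 0.63 ± 0.164 SE, adjusted p 0.0129 in edgeR). In the base-edited pair it read 71.62 and 82.49 against 136.0 and 180.8, a 2.04-fold rise (log2 fold change 1.03 ± 0.148 SE, adjusted p 1.96e-05 in edgeR). All 4 targeted libraries stood above all 4 controls. The CBE call was kept under each of 17 alternatives, whereas the KO call was lost without either AAVS1 KO library, without HOTSCRAMBL KO replicate 1 (0.52) and with library size alone (0.47).

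SREBF2, the SREBP gene tied most to sterol synthesis, did not pass with either editor. It read 207.4 and 191.2 in AAVS1 KO against 178.6 and 194.3 in HOTSCRAMBL KO, then 195.8 and 189.8 in AAVS1 CBE against 216.2 and 221.1 in HOTSCRAMBL CBE. SCAP, the SREBP escort, ran from 124.6 to 142.6 CPM over the 8 libraries, and STARD4, a sterol carrier, had log2 fold changes of 0.41 and −0.24. The intervals for SREBF2 ran from −0.35 to 0.16 with KO and from −0.065 to 0.42 with CBE.

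In fatty acid synthesis, FASN (ENSG00000169710, chromosome 17, 82078338 to 82098294) read 727.1 and 759.2 in AAVS1 KO against 551.1 and 499.4 in HOTSCRAMBL KO, then 708.0 and 712.5 in AAVS1 CBE against 462.6 and 546.2 in HOTSCRAMBL CBE. All 4 targeted libraries lay below all 4 controls. Its log2 fold change was −0.50 ± 0.0989 SE with Cas9 (adjusted p 0.00107 in edgeR) and −0.50 ± 0.0971 SE under base editing (adjusted p 0.000955 in edgeR). With 1 library left out the KO value lost its call in 3 fits (without either AAVS1 KO library, and −0.38 without HOTSCRAMBL KO replicate 2) and the CBE value in 2 (−0.46 without AAVS1 CBE replicate 1 and −0.37 without HOTSCRAMBL CBE replicate 1).

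ACACA (ENSG00000278540, chromosome 17, 37084992 to 37406836), which makes the malonyl-CoA that FASN uses, read 233.9 and 242.0 in AAVS1 KO against 154.3 and 158.1 in HOTSCRAMBL KO. It fell 1.52-fold (log2 fold change −0.61 ± 0.132 SE, adjusted p 0.00287 in edgeR), and the call was lost without AAVS1 KO replicate 2 (−0.49) and without HOTSCRAMBL KO replicate 1 (−0.52). In the base-edited pair it read 281.1 and 222.0 against 224.8 and 209.3, which overlap, with a log2 fold change of −0.21 that did not pass. ACLY, upstream of both, had log2 fold changes of 0.22 and 0.19, neither called.

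SCD (ENSG00000099194, chromosome 10, 100347233 to 100364826), which makes monounsaturated fatty acids, read 123.0 and 122.2 in AAVS1 CBE against 266.0 and 297.0 in HOTSCRAMBL CBE. It rose 2.29-fold (log2 fold change 1.19 ± 0.128 SE, adjusted p 2.32e-07 in edgeR), and the call was kept under each of 17 alternatives. With Cas9 it read 130.3 and 127.2 against 133.0 and 167.4, a log2 fold change of 0.22 that did not pass (edgeR adjusted p 0.416). FADS1 and FADS2, desaturases of polyunsaturated fatty acids that share exon bases with each other, had log2 fold changes of 0.86 and −0.32 with KO and 0.21 and 0.68 with CBE, and the elongase ELOVL6 −0.17 and 0.18. None of these 3 passed, and FADS1 with KO passed, of the alternatives run, only with DESeq2 (adjusted p 0.00371).

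The sterol exporter ABCA1 read 18.45 and 12.36 in AAVS1 CBE against 27.6 and 32.76 in HOTSCRAMBL CBE, with no overlap, and a log2 fold change of 0.93 that missed the threshold (edgeR adjusted p 0.0523). It passed with DESeq2 (adjusted p 0.0116) and with a filter of 1 CPM (adjusted p 0.0343). With Cas9 it read 15.95 and 12.12 against 15.81 and 10.15. ABCG1 had raw counts of 47 and 7 in AAVS1 KO against 0 and 2 in HOTSCRAMBL KO, then 50 and 20 in AAVS1 CBE against 6 and 12 in HOTSCRAMBL CBE. Its groups did not overlap with either editor and neither comparison passed (edgeR adjusted p 0.422 and 0.525). The counts in AAVS1 libraries were 22.4 times those in HOTSCRAMBL KO libraries per library size (exact 95% interval 5.92 to 190.0) and 3.88 times those in HOTSCRAMBL CBE libraries (2.29 to 6.92). These intervals cover counting error only and leave out the spread between libraries.

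Whether the effect of targeting HOTSCRAMBL differed between the editors was tested directly, as the KO effect minus the CBE effect. Of the 32 members, SREBF1 and SCD passed, both with the lower effect of Cas9, where 3.19% of all tested genes passed and 1.45% did so in that direction. SREBF1 differed by −1.02 on the log2 scale (SE 0.169, edgeR adjusted p 0.000498), lower with Cas9 and near its control with the base editor. SCD differed by −0.97 (SE 0.191, edgeR adjusted p 0.00292), near its control with Cas9 and higher with the base editor. The SREBF1 difference was kept under each of 16 alternatives. The SCD difference lost its call in 4 of 8 fits with 1 library left out (AAVS1 KO replicate 1, HOTSCRAMBL KO replicate 1, AAVS1 CBE replicate 2, HOTSCRAMBL CBE replicate 2), at values from −0.94 to −0.84.

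IDI1 differed by 1.41 (SE 0.407, edgeR adjusted p 0.0564), which did not pass, and passed under 5 alternatives, DESeq2 among them (adjusted p 0.00388). LSS differed by −0.78 (SE 0.272, edgeR adjusted p 0.145) and did not pass. The FASN effects differed by −0.0026 (95% interval −0.29 to 0.28), and those of INSIG1 by −0.40 (−0.85 to 0.058). For SQLE, SC5D, MSMO1, FDPS and ACACA, called with Cas9 alone, and MVD, called with the base editor alone, the difference between editors did not pass.

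INSIG1 and FASN were the members called with each editor in the same direction, and 3.07% of all tested genes were. The log2 fold changes had the same sign with each editor in 19 of the 32 members, against 56.75% of all genes. Across the 31 members other than ABCG1 the fold changes of the editors correlated with Pearson's r 0.399 and Spearman's rho 0.440. Over all tested genes Pearson's r was 0.035. Those include genes with low counts, and their KO log2 fold changes ran from −11.46 to 10.82, whereas 31 members had a mean above 5 CPM. No r was computed for other genes at the members' levels, so the gap between these values cannot be read as a trait of the members. Both are descriptions across genes, which share the same 8 libraries. In the average over editors 12 members passed, 6 higher (IDI1, SC5D, MSMO1, SQLE, INSIG1 and SCD) and 6 lower (MVD, FDPS, LSS, SREBF1, ACACA and FASN), where 12.3% of all genes passed, 5.79% higher and 6.50% lower.

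The controls and the labelled lines were compared as background. AAVS1 KO against AAVS1 CBE gave 0 called members by edgeR and by DESeq2 (background 0.00%). In edgeR 2 members, LSS and FADS1, had an unadjusted p under 0.05, which is 6.25% of the members against 3.812% of all genes. The MOLM13 label against the OCI-AML4 label over all groups also gave 0 by edgeR and DESeq2 (background 0.495%). FDFT1, SQLE, TM7SF2 and INSIG1 had an unadjusted p under 0.05 in edgeR and were lower under the MOLM13 label. They were 12.5% of the members, against 9.182% of all genes at that unadjusted threshold. Taken pair by pair within a line label, 25 of the 32 members had the same sign in both pairs with Cas9 and 23 with the base editor, against 58.1% and 60.25% of all genes. The groups did not overlap for 21 members with Cas9, 11 higher and 10 lower (44.8% of all genes, 21.0% higher and 23.8% lower), and for 18 with the base editor, 12 higher and 6 lower (46.4% of all genes, 22.7% higher and 23.7% lower). All genes include those with low counts, whereas 31 members had a mean above 5 CPM. These shares were not computed for other genes at the members' levels, so the gaps cannot be read as a trait of the members.

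The members differed in base composition, which the choice of genes had not used. GC content of the longest GENCODE v29 coding transcript ran from 34.24% to 65.61%, with a median of 50.32% against 49.53% over 13624 coding genes. The 5 members called higher with Cas9 had 38.12% to 46.5% GC and the 5 called lower had 48.72% to 65.34%, so these did not overlap. With the base editor INSIG1 and SCD had 45.98% and 47.13%, and FASN and MVD 65.34% and 65.61%. Across 31 members GC content and log2 fold change correlated with Pearson's r −0.546 and Spearman's rho −0.504 for KO and −0.493 and −0.488 for CBE. Over all coding genes r was −0.097 and −0.150, and over the 6793 of them above 20 CPM −0.160 and −0.292. Between the AAVS1 groups r over the members was 0.140. These are descriptions across genes that share the same libraries, and the part of GC content in the calls was not tested.

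**Figure D4:**
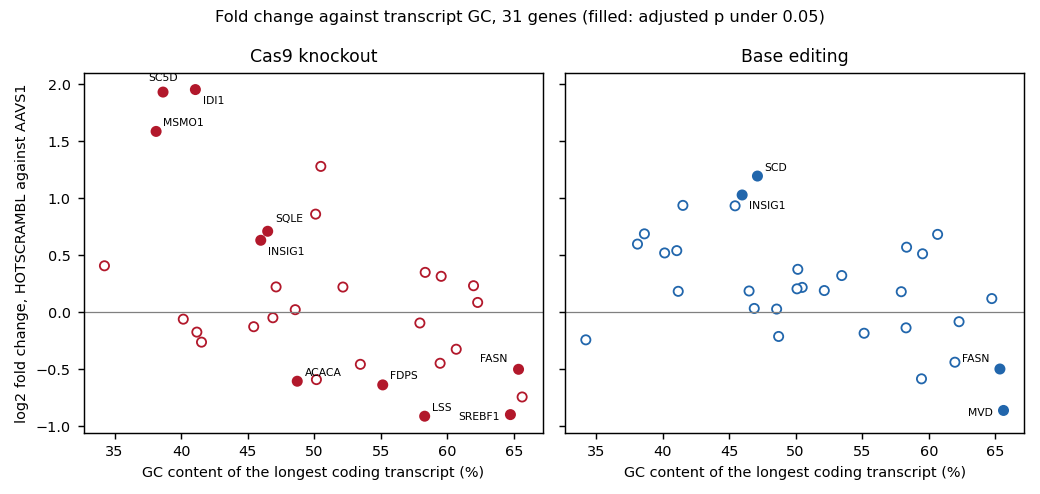
Log2 fold change of HOTSCRAMBL against AAVS1 for 31 members against the GC percentage of the longest coding transcript, for each editor. Filled, named points passed an adjusted p of 0.05. Members called higher with Cas9 lie at 38.12% to 46.5% GC and those called lower at 48.72% to 65.34%.

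Other genes of the same pathways were read from 3 lists. Of 13 genes of sterol handling, 1 passed with Cas9 (7.69%, against 8.76% of all genes) and 3 with the base editor (23.1%, against 8.83%, or 17.0% above 5 CPM). SOAT1, which esterifies cholesterol for storage, read 12.23 and 22.12 CPM in AAVS1 KO against 35.4 and 34.06 in HOTSCRAMBL KO (log2 fold change 1.02, edgeR adjusted p 0.0499). NPC2, which hands cholesterol out of lysosomes, read 1.74 and 2.90 in AAVS1 CBE against 10.23 and 12.68 in HOTSCRAMBL CBE (log2 fold change 2.35, edgeR adjusted p 0.00829). Its AAVS1 KO libraries stood above those of AAVS1 CBE, at 4.82 and 7.88 (log2 fold change 1.45, edgeR unadjusted p 0.0454, adjusted p 0.991). With Cas9 the NPC2 groups overlapped, at 6.94 and 23.11 in HOTSCRAMBL KO, and the log2 fold change of 1.25 did not pass (edgeR adjusted p 0.12). The oxysterol-binding proteins OSBP and OSBPL8 rose with the base editor by 0.60 and 0.68 on the log2 scale.

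Of 16 further genes of fatty acid metabolism, 2 passed with each editor (12.5%), a share near the 8.76% and 8.83% of all genes and below the 16.3% and 17.0% of genes above 5 CPM. HACD3, a dehydratase of fatty acid elongation, rose with both, by 1.14 with KO and 0.94 with CBE on the log2 scale. ACSS2, which makes acetyl-CoA from acetate, read 67.46 and 76.51 CPM in AAVS1 KO against 28.31 and 29.63 in HOTSCRAMBL KO (log2 fold change −1.32, edgeR adjusted p 0.000146), and ACSL4, an acyl-CoA synthetase, rose with the base editor by 0.66. Of 5 genes of the liver X receptors and their targets, 0 passed with Cas9 in edgeR, 0 in DESeq2 and 0 at an unadjusted p under 0.05. Of all tested genes, 8.76% passed with Cas9 in edgeR and 20.09% had an unadjusted p under 0.05. MYLIP, a ubiquitin ligase that degrades lipoprotein receptors, fell by 0.64 on the log2 scale with the base editor. ACSS2 and OSBPL8 also passed the direct test between editors, at −1.09 and −0.99.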

How the data were processed

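RNA of 8 ChIRP pull-down libraries was measured as whole-number read counts per gene, deposited without normalization. Per the file headers, the authors counted with featureCounts 2.0.6 on the Ensembl 112 annotation of GRCh38, with no strand option, without reads placed at several positions, and with both reads of a pair counted separately. Among values from 1 to 20, 71.8% to 74.9% were even. Aligner and duplicate removal are not given in the sources used here. No source here names molecular identifiers, so reads are not taken as independent molecules and counting error is a lower limit. Symbols matched 99.05% of identifiers, and 2 broken records were rejoined. Groups came from the sample titles.

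The test was edgeR's (version 4.0.16, R 4.3.3): TMM scaling, filterByExpr at a minimum count of 10 (24057 genes), the robust quasi-likelihood F-test, terms for 4 groups and for the labelled line, and 3 residual degrees of freedom. p-values were Benjamini-Hochberg adjusted over all tested genes at 0.05. The pairing comes from the labelled line; same-line libraries deviated together with r from 0.0154 to 0.0411. The common biological coefficient of variation was 0.708. Nothing says the libraries are repeat cultures, so p-values measure the spread between these libraries. Counts were simulated for the KO contrast over 24057 genes, with other group effects removed and changes given only to genes with a mean above 5 CPM. Of the genes changed by a log2 fold of 1, 34% were recovered, and 71% of those changed by 2. Recovery of lower genes was not tested. Alternatives used DESeq2 1.42.0, limma 3.58.1, other scaling and filters, no line term, only the contrast's libraries, and each library left out; edgeR's earlier dispersion estimate was added after seeing the data.

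Values are given per library for members called with either editor and for others where a role group is described. Members, lists and tests were chosen with earlier results of these data known. Columns of other samples numbered 0.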

Additional observations from a re-analysis of the deposited data

Results flagged for a closer look

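Of the members, the genes of the lists and the genes that overlap members, 7 had an effect of targeting HOTSCRAMBL that differed between Cas9 and the base editor by the direct test in edgeR. They were 2 of 32 members (6.25%), 1 of 13 genes of sterol handling (7.69%), 1 of 16 of fatty acid metabolism (6.25%), 2 of 9 tested myeloid markers (22.2%) and an overlapping gene. Of all tested genes 3.19% passed that test. SREBF1 differed by −1.02 on the log2 scale (KO effect minus CBE effect), with −0.90 for KO and 0.12 for CBE. SCD differed by −0.97, with 0.22 for KO and 1.19 for CBE. ACSS2, which makes acetyl-CoA from acetate, differed by −1.09 (edgeR adjusted p 0.0303), reading 71.53 and 81.61 CPM in AAVS1 CBE against 60.58 and 70.28 in HOTSCRAMBL CBE. OSBPL8, an oxysterol-binding protein, differed by −0.99 (edgeR adjusted p 0.0329), reading 73.69 and 89.99 CPM in AAVS1 KO against 76.77 and 56.14 in HOTSCRAMBL KO, where its groups overlapped. LYZ, a myeloid marker, differed by 1.97 (edgeR adjusted p 8.25e-08), with 2.20 for KO and 0.23 for CBE, and CSF1R, the receptor of a myeloid growth factor, by 1.22 (edgeR adjusted p 0.0093), with 0.69 and −0.53. STARD4-AS1, antisense to STARD4, differed by −1.81 (edgeR adjusted p 0.00329), with −1.35 and 0.46. Groups of 2 libraries are too small for a check of single outlying libraries.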

How the results depend on the processing

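The lowest and highest number of called members with 1 library left out were 3 and 9 for KO (10 with all libraries), 2 and 4 for CBE (4), 1 and 2 for the difference between editors (2), and 6 and 10 for the average (12). With only the 4 libraries of a contrast the counts were 3 for KO and 2 for CBE, and DESeq2 gave 4 for the difference. Fewer libraries leave fewer degrees of freedom; the cause of the DESeq2 count was not tested. Without the replicate block, that is without the line term, 9 members passed for KO, 4 for CBE, 2 for the difference and 10 for the average. It ended the KO call of FDPS and the average calls of FDPS and SQLE, and changed no other call of a member. None of the 28 called gene results turned its direction under the alternatives run, and 84 of their 462 values lost the call. The median over members was −0.21 for KO and 0.049 for CBE with library size alone, and with 1 library left out it ran from −0.17 to 0.039 for KO and from 0.024 to 0.22 for CBE; the cause was not tested.

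Values that changed sign all came from comparisons in which that member did not pass, though some of these members passed with the other editor. With library size alone FDFT1 had −0.14 for KO and −0.11 for CBE, HSD17B7 −0.11 for CBE, SCAP −0.073 for KO and SREBF1 −0.019 for CBE. With limma-voom FDFT1 had −0.0003 for KO and HSD17B7 −0.052 for CBE. With 1 library left out the KO values ran from −0.40 to 0.11 for ABCA1, −1.58 to 0.10 for ACAT2, −0.71 to 0.067 for CYP51A1, −0.17 to 0.73 for DHCR7, −0.45 to 0.089 for ELOVL6, −0.19 to 0.24 for FDFT1, −0.45 to 0.45 for HMGCS1, −0.18 to 0.15 for HSD17B7, −0.82 to 1.20 for PMVK and −0.10 to 0.84 for TM7SF2. The CBE values ran from −0.37 to 0.70 for EBP, −0.29 to 1.04 for ELOVL6, −0.055 to 0.39 for FADS1, −0.047 to 0.11 for FDFT1, −0.37 to 0.0029 for FDPS, −0.71 to 1.01 for HSD17B7, −0.0058 to 0.95 for IDI1, −0.33 to 0.082 for LSS, −0.12 to 0.48 for NSDHL, −0.20 to 1.04 for PMVK, −0.57 to 0.080 for STARD4 and −1.05 to 0.16 for TM7SF2. A lone library of a group was taken to vary like the other groups. Low members such as ABCG1 are limited by their counts.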

Other observations

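Several genes whose exons overlap those of members were themselves called. FEN1, a DNA replication nuclease beside FADS2, read 81.73 and 72.35 CPM in AAVS1 KO against 152.9 and 167.0 in HOTSCRAMBL KO, then 87.79 and 94.15 in AAVS1 CBE against 220.8 and 207.0 in HOTSCRAMBL CBE (log2 fold changes 1.06 and 1.24, edgeR adjusted p 1.89e-05 and 3.67e-07). SOD2, the mitochondrial superoxide dismutase antisense to ACAT2, rose with Cas9 by 1.01 on the log2 scale (edgeR adjusted p 0.00635), from 32.1 and 35.88 to 65.75 and 71.34 CPM. STARD4-AS1, antisense to STARD4, read 45.82 and 39.16 CPM in AAVS1 KO against 14.59 and 18.5 in HOTSCRAMBL KO (log2 fold change −1.35, edgeR adjusted p 0.00283), while STARD4 itself had 0.41 and did not pass. IDI2-AS1, antisense to IDI1, read 3.49 and 0.88 CPM in AAVS1 KO against 4.80 and 7.33 in HOTSCRAMBL KO and did not pass (edgeR adjusted p 0.258). These genes were named after their values were seen, and reads on shared bases cannot be split without strand.

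Among copies of members, CYP51A1P3 held 131 and 116 counts in AAVS1 KO against 38 and 307 in HOTSCRAMBL KO, then 86 and 10 in AAVS1 CBE against 108 and 52 in HOTSCRAMBL CBE. CYP51A1 held 148 and 172, 78 and 144, 116 and 197, and 441 and 160 in the same order. The copy was above CYP51A1 in HOTSCRAMBL KO replicate 2 and below it in the other libraries. The pseudogene IDI1P1 held 0 counts in each KO library and at most 6 in any library.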
